A study of Mus musculus with 192 samples.

Results

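Grid positions C4 and C8 were compared with positions E4 and E8 on a map of the mouse brain made by voxelation, in which a brain slice is cut into small cubes (voxels) and the RNA of each cube is measured. The row C side held 6 arrays, the row E side held 6 arrays, and together they were 12 arrays of the whole series, whose 3 datasets hold 59, 68 and 65. They were defined by grid name, and the choice was made with earlier results of these data known. All 4 positions were measured in each of 3 independently harvested datasets, so each dataset gave 1 difference of row C minus row E. All samples came from C57BL/6 male mice at postnatal day 56, with no treatment or genotype difference, and the reference on every array was whole brain RNA of the same strain, sex and age. Voxel RNA carried the dye Cy3 in datasets 1 and 3 and Cy5 in dataset 2. The labels call the voxel RNA pooled, without the number of animals behind it. Nor do they place the grid in the brain, and rows and columns carry only their grid names below.

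Values are log2 ratios of voxel to reference, centred on each gene's median over all arrays. They therefore compare positions with each other and carry no level of a gene against whole brain. Which channel was the numerator is not given in the sources used here; a higher value most likely means more RNA in the voxel, and all directions below rest on that reading. The labels do not say how many brains each dataset holds, so p-values rest on the spread between datasets or between arrays. They do not rest on a gene's own spread alone, since limma draws it toward a value shared by all features. The SD printed beside a difference describes the datasets and is not the spread behind its p-value.

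The 3 marker genes named for these positions have distinct roles. Ttr encodes transthyretin, the thyroxine and retinol carrier that in the brain is made mainly by the choroid plexus, the secretory epithelium inside the ventricles. Cryab encodes alpha B-crystallin, a small heat shock protein abundant in oligodendrocytes, the cells that make myelin. Gatm encodes glycine amidinotransferase, the first enzyme of creatine synthesis, which in the brain is also prominent in oligodendrocytes.

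On the 12 arrays, between 0.461% and 3.7% of rows were missing or at the floor of the table. The arrays differed widely: C4 and C8 of the same dataset correlated over genes at 0.189, 0.688 and 0.477 in datasets 1, 2 and 3, whereas the same position in different datasets correlated between -0.197 (C4 in datasets 2 and 3) and 0.198 (C4 in datasets 1 and 2). The difference of row C minus row E correlated between datasets at 0.179, 0.119 and 0.0876. Dataset 2, the one with the dyes swapped, gave the most similar pairs of arrays.

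Only a small group of genes separated the rows in the test between datasets. With 1 difference per dataset (n = 3), limma called 7 of 15553 features at an adjusted p under 0.05, which is 0.045% of those tested, 3 higher in row C (0.0193%) and 4 higher in row E (0.0257%). The named genes among them were Ttr and Thbs4, higher in row E, and Gm5797, higher in row C; the other 4 were clones without a gene symbol. A total of 1391 features had an unadjusted p under 0.05, against 777.7 expected by chance. A small spread of its own did not give a feature a small p in this test. Bex3, at 0.73 ± 0.03 (SD, n = 3), had an unadjusted p of 0.0106 (limma). The unnamed clone vm019475, at -1.61 ± 1.93, had a smaller one of 0.00846. The count depended on the datasets used: limma called 126 features without dataset 1, 2 without dataset 2 and 2 without dataset 3.

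A second limma fit took the spread from all arrays of the series, with position and dataset as terms. It treats the arrays of a dataset as independent, which the correlations above do not bear out, so its p-values are likely too small. It called 95 features, 0.611% of those tested, of which 77 were higher in row C (0.495%) and 18 were higher in row E (0.116%). Of the 7 features of the first test, 6 were among them. All 95 had the same sign in the 3 datasets. The 6 arrays of row C lay wholly above the 6 of row E in 30 of the 77, and wholly below in 11 of the 18; over all features measured on every one of the 12 arrays, the background was 0.735% and 0.543%. Without dataset 2 this fit called 7 features, without dataset 1 it called 50 and without dataset 3 it called 73. Of the 41 features named here that it called, Ttr, Ppp3ca, vc0339, vm005861 and vm012984 were the 5 still called without dataset 2, while 21 were still called without dataset 1 and 18 without dataset 3. Called below means called by this pooled-spread fit, unless the test of 3 differences is named.

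Ttr showed the largest difference of any feature with a gene symbol. Its values on the row C side were 0.37, -0.11 and -0.62 at C4 and 0.14, 0.02 and -0.50 at C8, in datasets 1, 2 and 3. At E4 they were 4.17, 3.13 and 2.84, and at E8 they were 4.94, 3.68 and 3.05. Every row E array lay far above every row C array. Row C was lower by 3.75 ± 0.47 on the log2 scale (SD, n = 3), a 13.5-fold difference, with an adjusted p of 5.7e-05 by the test of 3 differences and 2.16e-06 by the pooled-spread fit (limma). The 2 rows of the table that stand for Ttr disagreed in size, with a difference of -6.05 ± 0.58 for vm005813 and -1.46 ± 1.13 for vm000139, both with row E higher. The Ttr call remained when any 1 dataset was left out. As in all samples of bulk tissue, more cells of a type and more RNA per cell cannot be told apart.

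The highest mean of Ttr on the grid was at E7, with 4.10 ± 0.30 (SD, n = 3), and E8 and E4 ranked 3 and 5 among the 68 positions. The neighbouring rows were far lower in the same columns. In column 4 the mean was 0.47 ± 0.12 in row D and 0.93 ± 0.70 in row F, against 3.38 ± 0.70 in row E. In column 8 it was 1.15 ± 1.02 in row D and 0.88 ± 1.57 in row F, against 3.89 ± 0.96 in row E.

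An unnamed clone, vc0339, followed Ttr closely. It ran from -0.06 to 1.27 on the row C arrays and from 3.27 to 5.79 on the row E arrays, with no overlap. Its difference was -4.61 ± 0.89 (SD, n = 3), with an adjusted p of 5.7e-05 by the test of 3 differences (limma). Over all arrays of the series its values correlated with Ttr at r = 0.886, the highest of all features. The next in order were Ecrg4 at 0.658 over 190 arrays, the unnamed clones vm005861 at 0.624 and vm012342 at 0.58, and Igf2 at 0.543 over 191 arrays. These correlations are a description, since arrays share datasets and animals. Ecrg4 encodes a secreted precursor peptide and Igf2 encodes insulin-like growth factor 2, and both are known from choroid plexus epithelium.

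Choroid plexus genes had higher values in row E as a list. Of the 23 genes listed, 8 were measured, which for a list means here and below that they passed the filter and were tested. All 8 lay below 0 (row C minus row E), with a median of -0.61. Over all genes tested the median was -0.0175, 47.6% of the differences lay above 0 and 0.116% were called higher in row E. Only Ttr and Ecrg4 were called. Ecrg4 read 0.53, -0.04 and -0.30 at C4 and 0.73, 0.01 and 0.61 at C8, against 2.18, 0.98 and 1.08 at E4 and 2.27, 2.12 and 1.22 at E8, in datasets 1, 2 and 3. The rows did not overlap. Its difference was -1.38 ± 0.34 (SD, n = 3), with an adjusted p of 0.0191 by the pooled-spread fit and 0.156 by the test of 3 differences (limma), and the pooled call was lost without dataset 1 (0.248), without dataset 2 (0.446) or with floor values kept (0.378). The other 6 members, among them Igf2 at -0.98 ± 0.52, Folr1 (a folate receptor) at -0.59 ± 0.49 and Otx2 (a homeodomain transcription factor) at -0.55 ± 0.61, were not called. The mean over the 8 genes ran from -0.19 to 0.38 on the row C arrays and from 0.79 to 1.54 on the row E arrays. Ttr, with by far the largest difference of the 8, is part of this mean.

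Markers of the ependyma, the ciliated lining of the ventricles, were not called in either direction. Of 9 measured, 6 were below 0, with a median of -0.34. Dynlrb2, a dynein light chain of cilia, had -1.15 ± 0.24 (SD, n = 3), with an adjusted p of 0.0784 by the pooled-spread fit (limma).

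Thbs4 encodes thrombospondin 4, an extracellular matrix glycoprotein. It read -0.35, -1.24 and 1.18 at C4 and -0.31, -0.73 and 0.69 at C8, against 0.33, 2.47 and 4.36 at E4 and 2.55, 1.87 and 2.01 at E8. The lowest row E array, E4 of dataset 1, lay below both row C arrays of dataset 3, although row E was higher within each dataset. The difference was -2.39 ± 0.70 (SD, n = 3; 5.25-fold), with an adjusted p of 0.0101 by the test of 3 differences and 0.0315 by the pooled-spread fit (limma). Both calls were lost without dataset 2 (0.276 and 0.73) or without dataset 3 (0.132 and 0.187). E4 and E8 ranked 1 and 2 of the 68 positions for Thbs4.

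**Figure D1:**
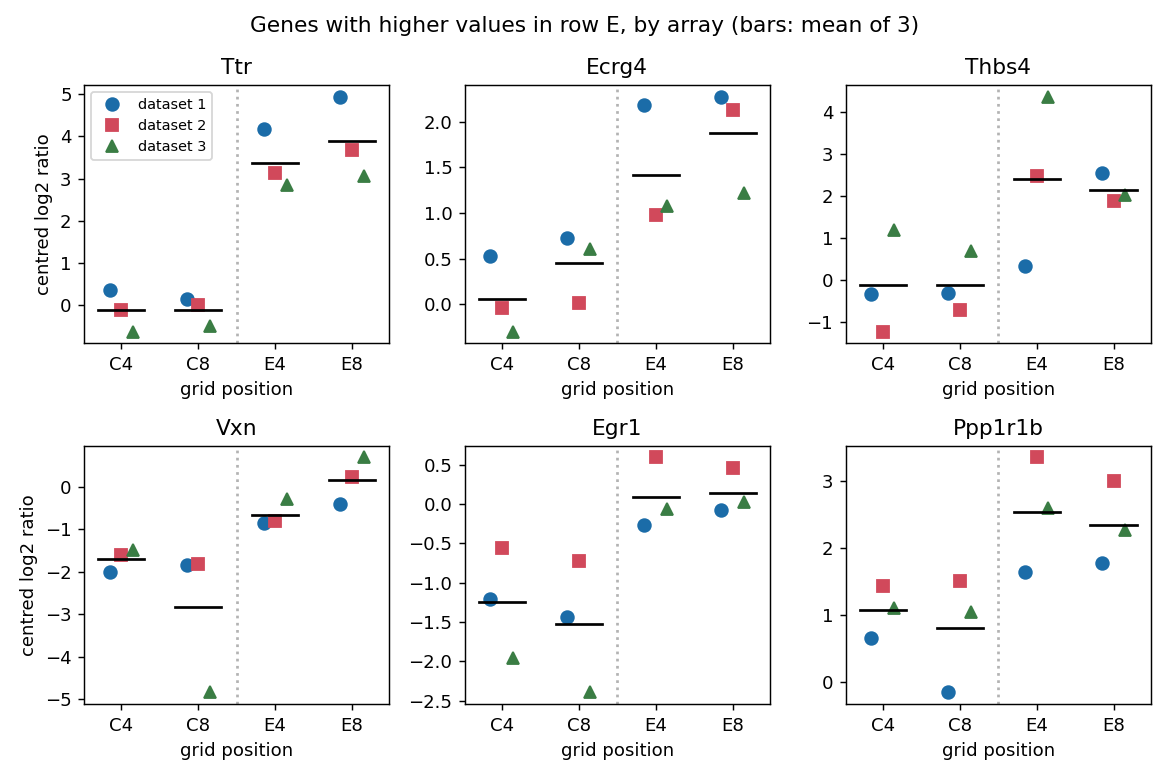
Centred log2 ratios (vertical axis) of 6 genes on each of the 12 arrays, by grid position (horizontal axis); symbols mark the dataset and bars the mean of 3 arrays. The Ttr values at E4 and E8 run from 2.84 to 4.94, above every value at C4 and C8, while the Thbs4 values overlap across rows.

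Of the other 8 named genes called higher in row E, Vxn and Egr1 were members of a list. Vxn, on the cortical neuron list, ran from -4.85 to -1.48 in row C and from -0.86 to 0.68 in row E, without overlap. Its difference was -2.02 ± 1.16 (SD, n = 3), with an adjusted p of 0.0222 by the pooled-spread fit (limma); the lowest value, at C8 of dataset 3, stood far from the rest, and without any 1 dataset the call was lost, the adjusted p lying between 0.114 and 0.306. In the cortical list 5 of 8 measured genes were below 0, with a median of -0.49, and Vxn alone was called.

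Egr1, an immediate early transcription factor that follows neuronal activity, ran from -2.40 to -0.55 in row C and from -0.27 to 0.59 in row E. The difference was -1.49 ± 0.58 (SD, n = 3), with an adjusted p of 0.0112 by the pooled-spread fit (limma), between 0.0952 and 0.237 with any 1 dataset left out. Of the 10 immediate early genes measured it was the one called. Fos, another member, had -0.21 ± 0.34 and Arc -0.64 ± 0.72. The list had a median of -0.11, with 3 of 10 above 0, among them Jun at 0.35 ± 0.17 and Dusp1 at 0.34 ± 0.61.

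A further 6 genes were called higher in row E at smaller sizes. They were Naaa (a lysosomal hydrolase of lipid amides) at -1.09 ± 0.30, Crip2 (a LIM domain protein) at -0.998 ± 0.404, and Ppp3ca (the catalytic subunit alpha of calcineurin) at -0.98 ± 0.48. Ezr, which links the cell membrane to actin, had -0.81 ± 0.30, Lmo7 had -0.74 ± 0.50, and Ccnd2, the cell cycle regulator cyclin D2, had -0.63 ± 0.20. Ccnd2 rested on 5 rows of the table that all read lower in row C, from -0.92 to -0.24, and its row C and row E arrays did not overlap. The 4 rows of Ezr ran from -2.01 ± 1.07 to -0.43 ± 0.84. The 2 rows of Lmo7 read -1.20 ± 0.46 and -0.29 ± 0.65. Without dataset 2 only Ppp3ca of these 6 was still called (adjusted p 0.00392, limma), and the adjusted p of the other 5 ran from 0.442 to 0.452. Ppp3ca in turn was not called without dataset 1 (0.475) or dataset 3 (0.283). Without dataset 1 Lmo7 alone of the 6 was called, and without dataset 3 Ezr and Ccnd2 were. Krt18, a keratin, is given as a value only: -1.77 ± 1.36 over 11 measured arrays, not called, and a second row for it, left out by the filter, read 0.24 ± 0.79.

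Striatal neuron genes lay lower in row C without a call. Of 10 measured, 9 were below 0, with a median of -0.57. Ppp1r1b encodes DARPP-32, the dopamine-regulated phosphoprotein of striatal projection neurons. It read 0.66, 1.44 and 1.11 at C4 and -0.16, 1.51 and 1.05 at C8, against 1.64, 3.36 and 2.60 at E4 and 1.78, 3.00 and 2.27 at E8. The rows did not overlap. Its difference, -1.51 ± 0.18 (SD, n = 3; 2.84-fold), had the adjusted p-values 0.0891 by the test of 3 differences and 0.12 by the pooled-spread fit (limma). Rasd2, a striatal GTPase, had -0.93 ± 0.65 and Syndig1l -1.04 ± 0.57, neither called.

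The row C side held most of the calls. Stmn3, a stathmin that acts on microtubules, read 0.60, 0.81 and 0.05 at C4 and 0.48, 1.34 and -0.23 at C8, against -0.69, -1.11 and -1.05 at E4 and -0.09, -0.47 and -0.90 at E8. Within each dataset both row C arrays were above both row E arrays, although C8 of dataset 3 lay below E8 of dataset 1. The difference was 1.22 ± 0.55 (SD, n = 3; 2.34-fold), with an adjusted p of 0.000103 by the pooled-spread fit and 0.252 by the test of 3 differences (limma), and 0.157 in the pooled-spread fit without dataset 2.

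Cplx1, complexin 1, which binds the vesicle fusion complex, read 0.93, 1.39 and 0.56 at C4 and 0.85, 2.31 and 0.10 at C8, against -0.42, -0.65 and -0.79 at E4 and -0.04, -0.11 and -0.51 at E8. The rows did not overlap, and C8 ranked 1 of the 68 positions. Its difference was 1.44 ± 0.68 (SD, n = 3; 2.72-fold), with an adjusted p of 0.000308 by the pooled-spread fit and 0.446 in that fit without dataset 2 (limma). Unc13c, a vesicle priming protein, ran from 0.97 to 2.24 in row C and from -0.31 to 0.33 in row E, a difference of 1.47 ± 0.76. Its adjusted p was 0.00499 by the pooled-spread fit, 0.525 without dataset 2 and 0.127 without dataset 3 (limma). C4 was its highest position of all 68.

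Other genes called higher in row C by the naming rule were Ubash3b (a phosphatase) at 1.49 ± 0.32, Acot7 (an acyl-CoA thioesterase of neurons) at 1.40 ± 0.96, and Kcnab3 (a beta subunit of voltage-gated potassium channels) at 1.37 ± 0.40. Adgra1, an adhesion receptor, had 1.17 ± 0.53, Rcn2, a calcium-binding protein of the endoplasmic reticulum, had 1.16 ± 0.44, Clec2l had 1.15 ± 0.59, and the predicted gene Gm6787 had 1.20 ± 0.72. None of these 7 calls held without dataset 2, where the adjusted p (limma) ran from 0.107 for Ubash3b to 0.686 for Gm6787. Ubash3b was called without dataset 1 and without dataset 3, Acot7, Kcnab3, Rcn2 and Clec2l without dataset 1 only, Gm6787 without dataset 3 only, and Adgra1 in neither case. Gm5797, a predicted gene, was called by the test of 3 differences (1.82 ± 0.40, adjusted p 0.0295) but not by the pooled-spread fit (0.297, limma), and its C8 array of dataset 3 was not measured.

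The list of pan-neuronal and axonal genes had a median of 0.68, with 6 of 8 measured genes above 0 and Stmn3 called. Syn1 (synapsin 1) had 0.85 ± 0.53, Gap43 0.71 ± 0.34 and Nefl (the light neurofilament) 0.60 ± 0.50, none called. Tubb3 had -0.09 ± 0.47.

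Astrocyte genes were the marker list with the most calls among the cell types. Of the 29 genes listed, 12 were measured. Of these 12, 11 were above 0, against 47.6% of all features tested, and the median was 0.65. A total of 5 were called, all higher in row C, against 0.495% of all features tested. They were Sparcl1 at 1.16 ± 0.56, Aldoc at 0.99 ± 0.53, Mlc1 at 0.93 ± 0.81, Plpp3 at 0.91 ± 0.13 and Slc1a3 at 0.67 ± 0.72. Aldoc, the brain form of aldolase, read 0.81, 0.82 and 0.17 at C4 and 0.76, 1.20 and 0.29 at C8, against -0.06, -0.61 and -0.46 at E4 and 0.15, -0.59 and -0.33 at E8. The rows did not overlap, and the adjusted p was 0.000668 by the pooled-spread fit (limma). Sparcl1, a secreted matrix protein of astrocytes, also had no overlap, with 0.32 as its lowest row C value and 0.21 as its highest row E value. Of the 5, 3 remained called without dataset 1, 0 without dataset 2 and 3 without dataset 3. Glul, the glutamine synthetase of astrocytes, had 0.04 ± 0.55 and was not called, and Gja1 (connexin 43) had 0.81 ± 0.20 and was not called.

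**Figure D2:**
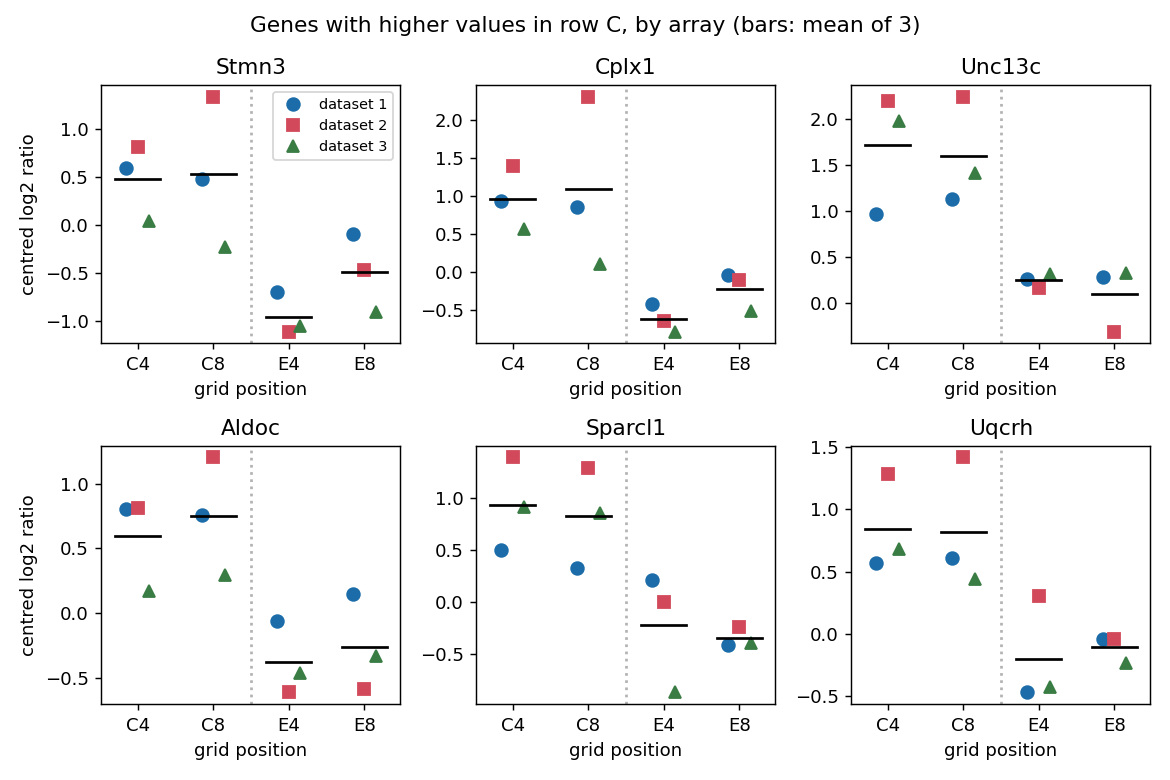
Centred log2 ratios (vertical axis) of 6 genes called higher in row C on each of the 12 arrays, by grid position (horizontal axis); symbols mark the dataset and bars the mean of 3 arrays. Dataset 2 holds the highest C8 value in each panel, and the Stmn3 values alone overlap between rows.

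Genes of oxidative phosphorylation lay mostly above 0. Most of their products form the respiratory chain and ATP synthase of mitochondria, and some are assembly factors. Of 68 measured, 59 were above 0, against 47.6% of all features tested, and the median was 0.41. Of the 68, 9 were called, all higher in row C, against 0.495% of all features tested. The mean over these genes was 0.19, 0.69 and 0.32 in datasets 1, 2 and 3. The highest of the 9 was Atp5j2, a subunit of ATP synthase, at 1.06 ± 0.79, followed by Uqcrh at 0.99 ± 0.20 and Atp5b at 0.89 ± 0.63. Uqcrh, a subunit of complex III, read 0.57, 1.29 and 0.68 at C4 and 0.61, 1.42 and 0.44 at C8, against -0.47, 0.30 and -0.43 at E4 and -0.04, -0.04 and -0.24 at E8. The rows did not overlap, and C4 and C8 ranked 1 and 2 of the 68 positions for Uqcrh. Its adjusted p was 0.00619 by the pooled-spread fit (limma). The others were Cox4i1 at 0.78 ± 0.75, Ndufa10 at 0.75 ± 0.86, Ndufv2 at 0.73 ± 0.75, Ndufv1 at 0.72 ± 0.17, Uqcrc1 at 0.72 ± 0.28 and Ndufb10 at 0.65 ± 0.15.

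Every complex of the chain had its median above 0. It was 0.41 for complex I (25 of 29 genes above 0), 0.57 for complex II (3 of 4), 0.47 for complex III (7 of 8), 0.43 for complex IV (10 of 10) and 0.31 for complex V (13 of 16). Genes were assigned by their names, so complex I here includes the assembly factors Ndufaf1, Ndufaf3, Ndufaf4, Ndufaf6 and Ndufaf7. Of the 9 calls, 4 remained without dataset 1, 0 without dataset 2 and 3 without dataset 3. Ndufa10, Ndufb10, Ndufv1 and Uqcrc1 were lost whichever dataset was left out. Ribosomal protein genes, the other large list of housekeeping genes, had a median of 0.22, with 64 of 74 above 0 and 0 called; their mean difference was -0.11 in dataset 1, 0.50 in dataset 2 and 0.25 in dataset 3. Both lists had their largest mean difference in dataset 2, and its part in these counts was not tested.

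Cryab and Gatm were not called by either test. Cryab read 1.29, 1.75 and 1.18 at C4 and 0.95, 2.07 and 1.11 at C8, against 0.74, 1.07 and 0.97 at E4 and 1.18, 1.42 and 0.45 at E8. The rows overlapped, and the difference of 0.42 ± 0.26 (SD, n = 3) had an adjusted p of 0.681 by the test of 3 differences and 0.702 by the pooled-spread fit (limma). Gatm read 1.45, 2.22 and 1.12 at C4 and 1.20, 2.36 and 0.82 at C8, against 0.35, 1.00 and 0.43 at E4 and 1.04, 1.04 and 0.62 at E8. Row C was higher within each dataset, by 0.64, 1.27 and 0.45, but the rows overlapped through C8 of dataset 3. The mean of 0.78 ± 0.43 (SD, n = 3; 1.72-fold) had an adjusted p of 0.381 and 0.206 by the same tests (limma).

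Both genes had their maxima on the row C side. For Cryab and for Gatm, C4 ranked 1 and C8 ranked 2 of the 68 positions. The same held for Qdpr, dihydropteridine reductase, another gene of the oligodendrocyte list. It did not hold for Bcas1 of that list, which had its highest mean at D4. For Bcas1, E4 and E8 ranked 5 and 4, and C4 and C8 ranked 10 and 7. These ranks are a description, since Cryab and Gatm were named for these positions. Qdpr and Bcas1 were chosen after their values were seen. C4 and C8 also held ranks 1 and 2, in either order, for genes of other lists. Among these were Sparcl1, Mlc1, Aldoc, Atp5b and Uqcrh. E4 and E8 ranked 9 and 5 for Cryab and 14 and 7 for Gatm, so both rows lay on the high part of the map. In column 4 the Gatm mean went from 1.60 ± 0.56 in row C to 1.33 ± 0.54 in row D, 0.59 ± 0.36 in row E and -0.32 ± 0.45 in row F. In column 8 it was 1.46 ± 0.80, 1.40 ± 0.50, 0.90 ± 0.24 and 0.40 ± 0.58 in the same rows. Rows C and D were not tested against each other. In column 4 Gatm was higher in row C than in row D within each dataset, where D4 read 1.02, 1.95 and 1.01. In column 8 this held in dataset 2 alone, where D8 read 1.58, 1.78 and 0.84 in datasets 1, 2 and 3.

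**Figure D3:**
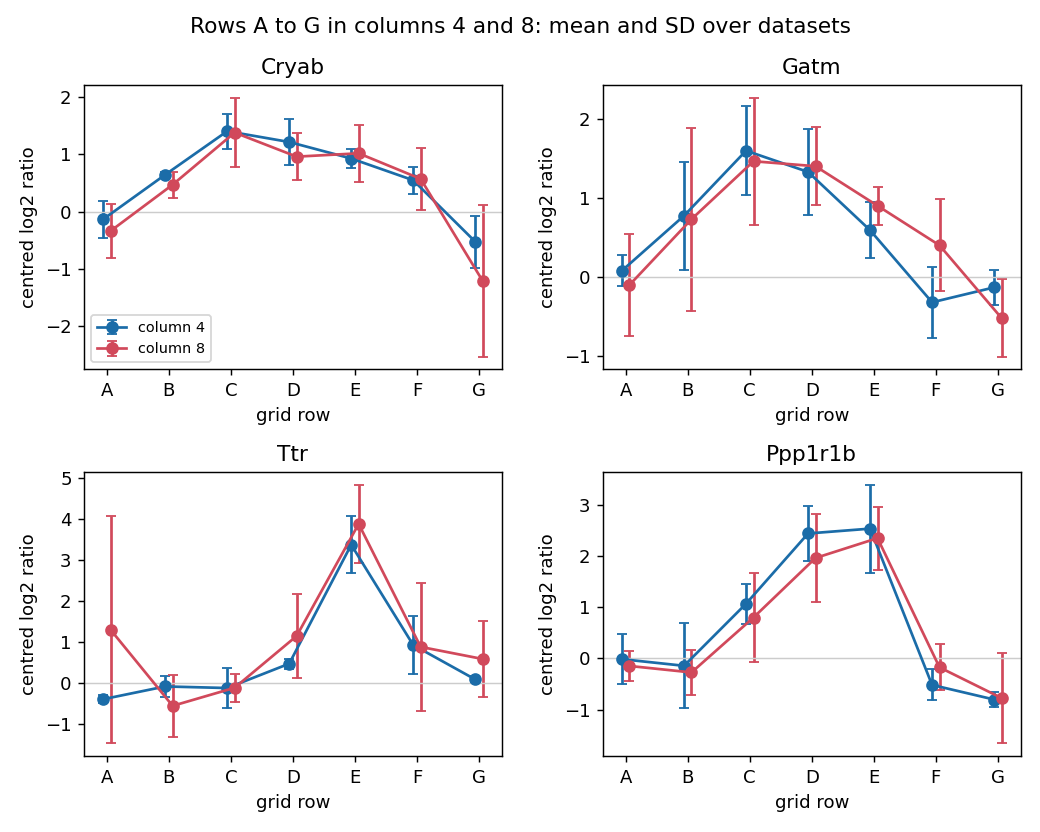
Mean centred log2 ratio (vertical axis; bars are the SD over 2 or 3 datasets) in grid rows A to G (horizontal axis) of columns 4 and 8 for Cryab, Gatm, Ttr and Ppp1r1b. Cryab and Gatm have their highest means in row C and lower ones in rows E to G, Ttr stands high in row E, and Ppp1r1b is high in rows D and E.

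The oligodendrocyte and myelin genes as a list lay close to 0. Of the 53 genes listed, 17 were measured; 8 were above 0 and 9 below, the median was -0.04, and 0 were called by either test. The mean over the 17 genes ran from 0.50 to 0.90 on the row C arrays and from 0.39 to 0.83 on the row E arrays. Mbp (myelin basic protein) had -0.51 ± 0.34, Bcas1 had -0.13 ± 0.48 and turned to 0.12 without dataset 1, and Nkx6-2, a transcription factor of oligodendrocytes, had 1.05 ± 0.96. Of the 6 measured genes of creatine metabolism, 5 were above 0, with a median of 0.35 and 0 called; Ckmt1, the mitochondrial creatine kinase, had 0.78 ± 0.34 and Slc6a8, the creatine transporter, 0.58 ± 0.20.

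Lists of other regions and cell types gave few calls. Thalamic genes had a median of 0.35, with 9 of 10 above 0 and 0 called, led by Tnnt1 at 1.06 ± 0.96 and Prkcd at 0.86 ± 0.56. Hypothalamic genes had a median of 0.56, with 7 of 8 above 0; Peg3, an imprinted zinc finger gene, was called at 0.61 ± 0.21, though 1 of its 3 rows in the table read -0.0037, and the call was lost without dataset 2 (adjusted p 0.554, limma). Vascular genes had a median of 0.17, with 10 of 12 above 0. Sparc, a matrix glycoprotein, was called at 0.94 ± 0.53, a call lost without dataset 2 (adjusted p 0.13, limma) or dataset 3 (0.0989). The 4 rows of Sparc in the table ran from 0.27 to 1.68. Microglial genes had a median of 0.11 (5 of 5 above 0), meningeal genes -0.13 (4 of 12) and blood genes 0.03 (2 of 3), with 0 called in each. None of the 13 genes listed for the pallidum and cholinergic neurons was among the features tested.

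**Figure D4:**
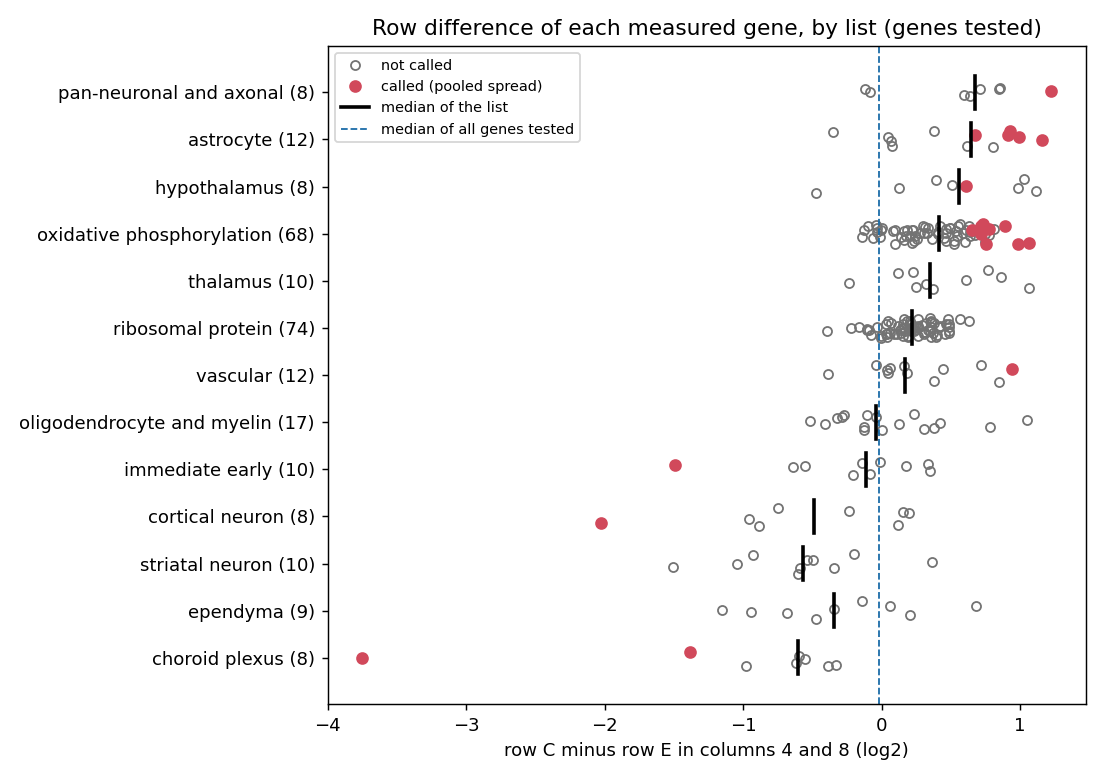
Row C minus row E (log2, horizontal axis) for every measured gene of 13 lists (vertical axis, with the number of genes tested); filled points were called by the pooled-spread fit, black bars are list medians and the dashed line is the median of all genes tested. Choroid plexus genes lie below 0 and astrocyte and oxidative phosphorylation genes mostly above it.

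Columns 4 and 8 lie equally far from the middle column of the grid, and their row differences could be compared directly. The difference of C4 minus E4 was set against that of C8 minus E8 within each dataset. Of 14553 features, 0 differed at an adjusted p under 0.05 (limma), 0% of those tested; 486 had an unadjusted p under 0.05 against 727.7 expected by chance, and the smallest adjusted p was 0.854. With dataset 1 or dataset 3 left out the count was 34 or 18. For Ttr the difference was -3.50 in column 4 and -4.003 in column 8, for Ecrg4 it was -1.35 and -1.42, for Ppp1r1b -1.47 and -1.55, and for Cplx1 1.58 and 1.31. Vxn had -1.04 and -3.00. The smallest p-values belonged to Tcam1, Cyp2d9 and 1700023F02Rik in one direction and Lig4, Cphx1 and Tekt2 in the other, none called. Over all genes tested the 2 columns' differences correlated at 0.0685 in dataset 1, 0.521 in dataset 2 and 0.235 in dataset 3.

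A last comparison asked whether the same rows differed in this way in the columns on the outer sides. Columns 5, 6 and 7, between columns 4 and 8, were not part of it. The row difference in columns 4 and 8 was set against that in columns 2, 3, 9 and 10. These columns hold 23 further arrays in rows C and E. Dataset 1 has no array of E3 here, so its C3 array was not used either. Of 15539 features, 3 differed (0.0193% of those tested, limma), all with a lower value in columns 4 and 8: vc0339, Ttr and Ppp1r1b. For Ttr the outer difference was -0.47 ± 0.12 (SD, n = 3), and the inner difference minus the outer one was -3.28, with an adjusted p of 0.00409. For vc0339 the outer difference was -0.37 ± 0.40, and the adjusted p was 0.00064. Ppp1r1b had opposite signs, with 1.21 ± 0.68 in the outer columns, where row C was higher, and -1.51 ± 0.18 in columns 4 and 8, where row E was higher; the adjusted p was 0.0219. The count was 0 without dataset 2, 1 without dataset 3 and 39 without dataset 1.

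The columns between 4 and 8 held a like row difference for Ttr, vc0339 and Ecrg4, given here as values chosen after they were seen and without a test. No values are given there for the other members of the choroid plexus list. Ttr had a mean of 0.26 ± 0.68 at C5 and 3.74 ± 0.35 at E5 (SD, n = 3), -0.59 ± 0.40 at C6 and 4.06 ± 0.85 at E6, and 0.02 ± 0.04 at C7 (n = 2) and 4.10 ± 0.30 at E7. The clone vc0339 went from 0.29 ± 0.96 at C5 to 5.58 ± 0.10 at E5, and from -0.16 ± 0.42 at C7 to 5.20 ± 0.34 at E7. Ecrg4 had 0.30 ± 0.30 at C5 against 2.24 ± 0.10 at E5, and 0.31 ± 0.28 at C7 against 2.19 ± 1.02 at E7. The high row E values of these 3 features ran across columns 4 to 8. Ppp1r1b in column 5 had -1.17 ± 1.61 at C5 and -0.01 ± 0.63 at E5, with row E again the higher. Both means were below those of columns 4 and 8, which were 0.93 in row C and 2.44 in row E.

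Other genes differed between the columns by amounts that were not called. Thbs4 had 0.30 ± 1.07 in the outer columns (adjusted p 0.0554, limma), Kcnab3 had -0.84 ± 0.48 (0.185) and Cplx1 had -0.60 ± 0.32 (0.31). Vxn had -1.83 ± 0.27 there, close to its -2.02 in columns 4 and 8. The oxidative phosphorylation list had a median of 0.04 in the outer columns, and 60 of its 68 genes had a higher difference in columns 4 and 8; none of them was called in this comparison. The striatal list had a median of 0.51 in the outer columns against -0.57 in columns 4 and 8, and the astrocyte list had 0.11 against 0.65. Cryab read -0.59 ± 0.15 in the outer columns and 0.42 ± 0.26 in columns 4 and 8 (adjusted p 0.851, limma).

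**Figure D5:**
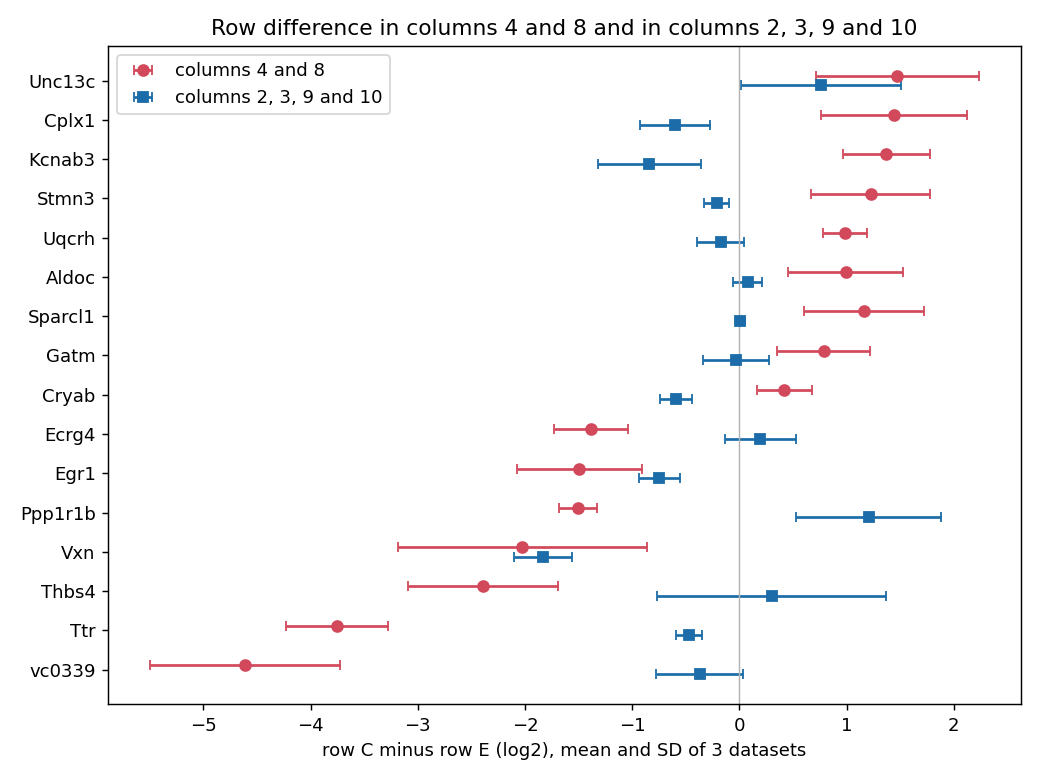
Row C minus row E (log2, horizontal axis; points are means and bars the SD of 3 datasets) for 16 features (vertical axis) in columns 4 and 8 (circles) and in columns 2, 3, 9 and 10 (squares). Ttr and vc0339 lie farther from 0 in columns 4 and 8 than in these outer columns, and Ppp1r1b changes sign between the 2 sets of columns.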

How the data were processed

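RNA of brain voxels was measured on 2-colour arrays against whole brain RNA. The authors deposited 1 table of log2 ratios with 20847 rows. In the deposited log2 values 99.9% of rows have a median within 0.001 of 0, 0.483% sit at the floor of -6.64 and 1.93% are missing. Per the labels' protocols, Trizol was used for extraction. How the authors corrected background and scaled the arrays is not given in the sources used here.

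Floor values were treated as missing, arrays were centred on their median (shift at most 0.3527), and rows had to be measured on 80% or more of each dataset. Rows of a gene were averaged, leaving 15617 features, 8398 of them with a symbol (2896 averaged over several rows). Of the table's rows, 12982 had 1 symbol found in the mouse gene table, 317 had several and 7299 had none.

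The dataset number pairs arrays, since the series describes the 3 datasets as independently harvested: deviations from position means correlated within datasets at a median of 0.169, 0.246 and 0.287 (lowest -0.0788, in dataset 2). The first test took 1 difference per dataset into limma 3.58.1 (R 4.3.3; lmFit and eBayes, two-sided, Benjamini-Hochberg over all features, threshold 0.05); the second fitted all arrays with position and dataset as terms. Only the precision that 3 datasets allow is available. Both were run on simulated data with known differences. The simulated arrays of a dataset shared only an offset per gene, which both tests remove. That run therefore could not show whether the p-values of the pooled-spread fit are too small. Alternatives were quantile normalization, floor values kept or values limited, no centring, other filters, robust eBayes, other blocks and leaving out each dataset.

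Named genes were up to 12 per direction by size among called genes with 1 symbol and the same sign in every dataset, the 3 markers, called members of the gene lists, and called genes (otherwise the 3 smallest p-values per direction) of the column comparisons. Members of lists given as examples without a call, and Qdpr and the unnamed clones, lie outside this rule and were chosen after their values were seen. The positions, lists and tests were chosen with earlier results of these data known.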

Additional observations from a re-analysis of the deposited data

Results flagged for a closer look

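For 3 features the row difference in columns 4 and 8 differed from that in columns 2, 3, 9 and 10 by a test of the difference itself (limma, n = 3 datasets). The inner difference minus the outer one was -4.24 for vc0339, -3.28 for Ttr and -2.71 for Ppp1r1b. For Ppp1r1b the sign turned between the columns, with row E higher in columns 4 and 8 and row C higher in the outer columns. None of the 3 remained called without dataset 2.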

How the results depend on the processing

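Counts moved more than directions. In the test of 3 differences, which called 7 features, robust eBayes gave 20, floor values kept gave 2, each row of the table on its own gave 14, 6 column differences with the dataset as a random block gave 4, and 12 arrays with row, column and dataset as terms (replicate block) gave 12. Without the replicate block, that is without pairing by dataset, it gave 1, and the pooled-spread fit gave 32 in place of 95. Leaving out 1 dataset gave 2 to 126 features in the first test, 7 to 73 in the pooled-spread fit, 0 to 34 between columns 4 and 8 and 0 to 39 against the outer columns. Quantile normalization gave 226 features in the pooled-spread fit and 10 against the outer columns, where 3 were called; there, genes measured on all arrays gave 18, robust eBayes 6, floor values kept 1 and values limited to within 3 of 0 gave 0. Of the 41 named features that the pooled-spread fit called, 21 remained without dataset 1, 5 without dataset 2, 18 without dataset 3, 37 with quantile normalization, 29 with floor values kept and 33 without centring. Under these alternatives Bcas1 alone among the named features changed sign, with 0.1249 without dataset 1 and -0.3534 without dataset 3 (-0.1252 with all). The oligodendrocyte list's median was -0.16 with quantile normalization and 0.12 without dataset 1. The cause of these shifts was not tested. Spot intensities were not used here, so signal over background is unknown.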

Other observations

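Beyond the genes reached by the naming rule, the pooled-spread fit (limma) called further genes of energy metabolism higher in row C, chosen here after their values were seen. They were Idh3b (a subunit of mitochondrial isocitrate dehydrogenase) at 0.86 ± 0.48 (SD, n = 3), Got2 (mitochondrial aspartate aminotransferase) at 0.83 ± 0.32, Mdh1 (cytosolic malate dehydrogenase) at 0.82 ± 0.45, Ldhb (lactate dehydrogenase B) at 0.79 ± 0.39 and Tpi1 (triosephosphate isomerase) at 0.86 ± 0.70. Genes of neurons among the calls were Sv2a (a synaptic vesicle glycoprotein) at 1.00 ± 0.34 and Ina (alpha-internexin, a neuronal intermediate filament) at 0.88 ± 0.05. Kif5b, a heavy chain of kinesin, had 0.90 ± 0.32. Atp1b2, the beta 2 subunit of the sodium pump found mainly in glia, had 1.01 ± 0.48, and Acsbg1, an acyl-CoA synthetase, had 0.97 ± 0.42. Nr2f2, a nuclear receptor, had 1.13 ± 0.24. The smallest spread over datasets in this group was that of Bex3, at 0.73 ± 0.03. Of all 95 features the fit called, 6 were still called without dataset 2, and 5 of these are named in the report, so at most 1 of the genes listed here kept its call.

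The unnamed clones vm012984 and vm002060 were called higher in row C by both tests, with 2.11 ± 0.44 and 2.23 ± 0.61, and vm005861 was called higher in row E by both, with -2.52 ± 0.62. In the pooled-spread fit (limma) vm012984 and vm005861 were still called without dataset 2 or dataset 3 but not without dataset 1, and vm002060 was lost whichever dataset was left out.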
